A study of Mus musculus with 36 samples.

Results

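The transcriptome of mouse cortical neurons (CNs) after 6 h of BDNF was set against unstimulated controls. Members were the 2 RNA-seq libraries labelled BDNF 6 h and the 6 control libraries (2 each for 1, 6 and 10 h), 8 of the 36 samples of the series. The CNs were primary cells dissected from the cortices of CD-1 mouse embryos at embryonic day 15, with the tissue of all embryos dissociated together and cultured for 7 days. Because embryos were pooled, libraries of a group cannot be traced to single animals, and p-values measure the spread between libraries within groups. CNs of the BDNF group were silenced for 2 h with 100 µM AP-5, which blocks NMDA receptors, and 1 µM TTX, which blocks sodium channels, and then received 10 ng/ml BDNF for 6 h. Controls stayed in AP-5 and TTX for 3, 8 or 12 h. The labels do not say whether the blockers were still present during BDNF, so adding BDNF and removing the blockers cannot be told apart. RNA libraries of BDNF 1 h, BDNF 10 h and KCl 6 h (55 mM KCl, which depolarises the membrane) were used for contrasts, and ATAC-seq libraries of open chromatin for the surroundings of the genes.

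BDNF is a secreted neurotrophin that binds the receptor tyrosine kinase TrkB (gene Ntrk2). TrkB recruits adaptors such as Shc and Frs2 and activates the Ras-MAPK, PI3K-Akt and phospholipase C-gamma pathways, and in cortical neurons it is known for immediate early genes, local and general protein synthesis, dendrite growth and synaptic plasticity.

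Depth was 13365788 and 13083893 reads in the BDNF 6 h libraries A and B. It was 9747599 to 36699187 reads in the controls, where control 1 h A was the deepest and stood apart. All levels are normalised read counts, that is read counts divided by a size factor of the library, and they are not corrected for gene length. Fold changes are differences of log2(normalised count + 1) ± SE between 2 BDNF and 6 control libraries. The SE and p-values come from a limma fit over all 18 RNA libraries of the series. Genes with Benjamini-Hochberg adjusted p below 0.1 (FDR = 10%) are called DE-genes. Changes of weakly expressed genes depend on the pseudocount of 1 and on the method. A fit of read counts by edgeR gave larger values for some (Gal, 6.77 in place of 5.92) and smaller for others (Egr4, 4.35 in place of 4.67). Neuronal identity was checked with 6 pan-neuronal markers, whose summed level was 54695 to 60973 (median 59115) in controls and 53089 and 54738 with BDNF, and with 7 excitatory markers at 8193 to 9272 (median 8724) in controls and 8566 and 8567 with BDNF. Other cell types were present. The 7 astrocyte markers summed to 13569 to 18301 (median 16479) in controls and 12899 and 13431 with BDNF, and the 7 oligodendrocyte lineage markers to 5964 to 6453 (median 6139) in controls and 5661 and 5791 with BDNF. In both sums the BDNF libraries lay below every control. Of the pan-neuronal sums with BDNF, 53089 also lay below every control and 54738 did not. Microglial markers summed to 126 to 185 (median 161) in controls and 113 and 132 with BDNF, with P2ry12 and Itgam below a mean of 10, and endothelial markers to 275 to 1231 (median 678) in controls and 250.4 and 491 with BDNF, with Pecam1, Flt1 and Cldn5 below a mean of 10. In such bulk samples fewer cells of a type and less RNA per cell cannot be told apart.

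At 6 h of BDNF, 3588 of 16209 tested genes were up-regulated (22.1%) and 3426 were down-regulated (21.1%). Counts of list members below are to be read against these shares. Most changes were modest, as the median absolute log2 fold change of DE-genes was 0.40. A change of at least 2-fold was reached by 273 up-regulated genes (1.68%) and 239 down-regulated genes (1.47%). Rises of at least 4-fold were found for 85 genes and falls of that size for 7 genes. Both BDNF libraries lay outside the range of all 6 controls for 6477 of the 7014 DE-genes, for 271 of the 273 genes with a large rise and for 230 of the 239 with a large fall. The same libraries made the calls, so this separation follows largely from them, and its share over all tested genes is not given. Remarks below on separate groups of single DE-genes likewise only describe their values. Without BDNF 6 h library B the counts of DE-genes were 2303 up and 2141 down, and without library A 2225 were down. The median log2 fold change of all tested genes was -0.00295. Under TMM scaling, another way to equalise libraries, 48.98% of DE-genes were up-regulated in place of 51.15%.

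The 12 largest rises among well expressed protein-coding genes included the transcription factors Egr2, Egr4 and Egr1 and the ERK phosphatases Dusp5 and Dusp6, beside genes of other functions such as Vgf and Arc. By the rule of choice both BDNF libraries lay beyond all controls in each of the 12 rises and 12 falls. Egr2 was 8.3 to 15.6 (median 11.5) in controls and 477 and 408 with BDNF. Arc, a postsynaptic protein that controls AMPA receptor traffic, was 25.1 to 39.4 (median 34.2) in controls and 919.7 and 957 with BDNF, and Vgf was 251 to 481 (median 346) and 11851 and 12560.1. The lowest Vgf and Arc values with BDNF lay far above the highest controls. The log2 fold changes were 5.14 ± 0.18 for Egr2, 4.80 ± 0.15 for Arc and 5.13 ± 0.29 for Vgf, with adjusted p of 2.39e-15, 1.59e-15 and 8.18e-08 (limma). Egr4 (4.67, or 3.81 with a pseudocount of 5) and Egr1 (3.85) completed the 5 largest.

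Rasl11a (chr5:146845071-146847726, plus strand), a Ras-like small GTPase, came next. Its controls ranged from 14.5 to 27.4 (median 25.2) and its BDNF libraries read 303 and 242 (log2 fold change 3.55 ± 0.23, adjusted p = 1.07e-10, limma). Synj2 (chr17:5941280-6044290, plus strand), an inositol phosphatase of membrane traffic, was at 22 to 37.3 (median 31.6) in controls and at 316 and 354 with BDNF (log2 fold change 3.43 ± 0.18, adjusted p = 4.81e-12, limma). C1ql2, a secreted C1q-like protein of synapses, was at 15.6 to 25.6 (median 20.7) in controls and 222 and 224 with BDNF (log2 fold change 3.36 ± 0.22, adjusted p = 1.39e-10, limma). Of these 3 genes, C1ql2 had the BDNF libraries closest to each other. Fndc9, a little studied fibronectin type III protein, went from a control range of 40.6 to 65.3 (median 44.8) to 467 and 499.5 with BDNF (log2 fold change 3.28 ± 0.15, adjusted p = 6.90e-13, limma). Sema3e (chr5:14025276-14256689, plus strand), a secreted semaphorin that signals through plexin D1, went from a control range of 76.4 to 102 (median 89.5) to 778 and 762 with BDNF (log2 fold change 3.10 ± 0.14, adjusted p = 2.77e-13, limma). Its 2 BDNF libraries differed by less than the span of the controls.

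**Figure D1:**
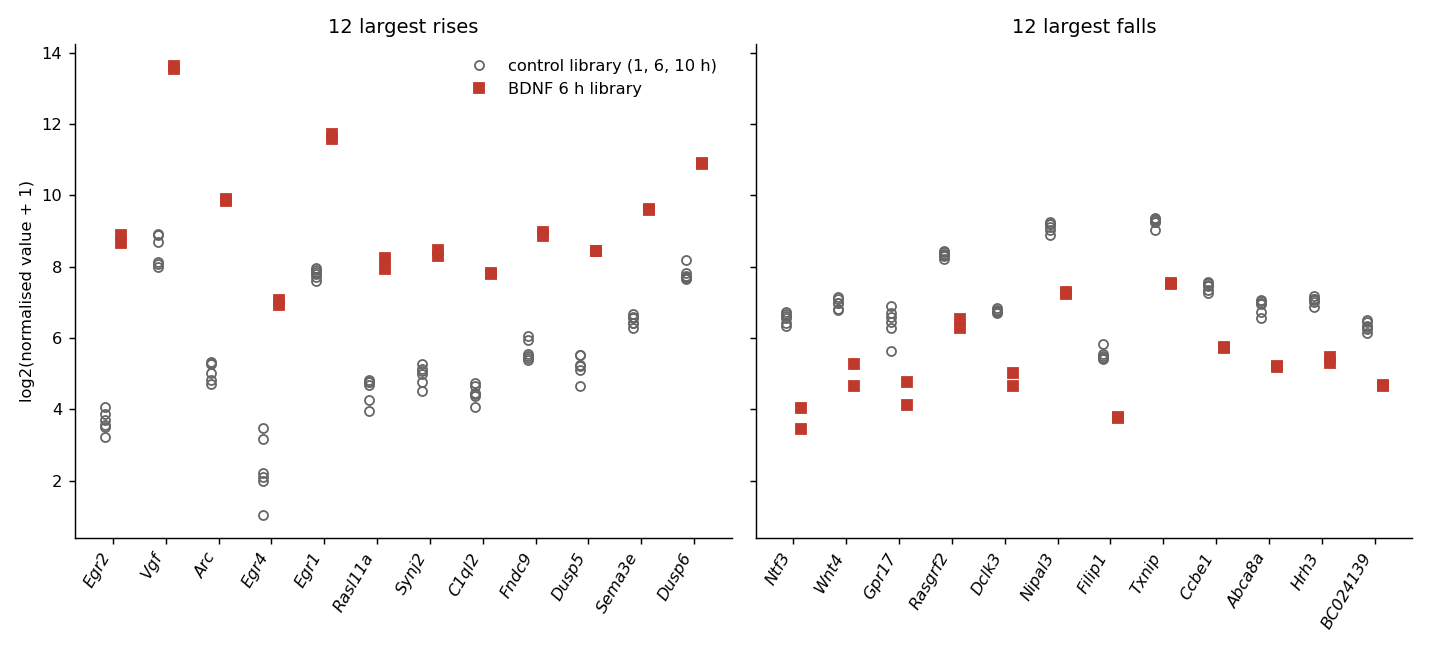
Expression of the 12 genes with the largest rise (left) and the 12 with the largest fall (right), as log2(normalised count + 1) on the y axis. Open circles are the 6 control libraries and filled squares the 2 BDNF 6 h libraries, and the 24 genes were chosen for squares that lie outside the range of the circles, so that only the size of the gap is informative.

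The falls were smaller in size. Ntf3 (chr6:126101412-126166910, minus strand), which encodes the neurotrophin NT-3, fell most. It was at 80.3 to 106 (median 95) in controls and at 9.91 and 15.6 with BDNF (log2 fold change -2.81 ± 0.18, adjusted p = 1.09e-10, limma). Wnt4 (chr4:137277489-137299726, plus strand), a secreted Wnt ligand, was at 109.6 to 142 (median 125) in controls and 24.3 and 37.5 with BDNF (log2 fold change -2.002 ± 0.17, adjusted p = 5.19e-09, limma). Gpr17, a receptor of oligodendrocyte precursors, was at 48.7 to 119 (median 91) and 26.1 and 16.5 (log2 fold change -1.98 ± 0.31, adjusted p = 7.11e-05, limma), and the summed oligodendrocyte markers were also lower. Their part in this fall was not tested. Hrh3, the histamine H3 receptor, was at 117 to 145 (median 134) in controls and 38.7 and 43 with BDNF (log2 fold change -1.67 ± 0.14, adjusted p = 5.90e-09, limma). The control range was widest, relative to its median, for Gpr17. The other large falls were Rasgrf2 (-1.93), Dclk3 (-1.93), Nipal3 (-1.84), Filip1 (-1.76), Txnip (-1.74), Ccbe1 (-1.71), Abca8a (-1.68) and BC024139 (-1.66). Rasgrf2 is a calcium-dependent exchange factor for Ras, Dclk3 a doublecortin-like kinase, Filip1 a binding partner of filamin A, Txnip an alpha-arrestin that limits glucose uptake and Abca8a an ABC transporter.

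Among neurotrophins and their receptors, 7 genes rose and NT-3 and TrkB fell. In this list 7 of 10 tested members rose and 2 fell (median log2 fold change 0.26), where the shares over all genes were 22.1% and 21.1%. With controls of 6 h only 4 of 10 rose, and without BDNF 6 h B 5 of 10. Bdnf was at 38.5 to 65.1 (median 62.5) in controls and 97.3 and 121 with BDNF (log2 fold change 0.89 ± 0.19, adjusted p = 0.0012, limma). The groups were separate, and the lowest Bdnf control was control 10 h A. Ngfr, which encodes the p75 receptor, rose from a control range of 52.7 to 68.5 (median 56.2) to 107 and 106 with BDNF (log2 fold change 0.85 ± 0.19, adjusted p = 0.00123, limma). Transcripts of the BDNF receptor fell: Ntrk2 was at 5835 to 7734 (median 6796) in controls and at 4662 and 5018 with BDNF (log2 fold change -0.51 ± 0.09, adjusted p = 9.34e-05, limma). Ntrk2 is also expressed by astrocytes, whose summed markers were lower with BDNF as well, and their part in the fall was not tested. The TrkC gene Ntrk3 (0.22) and the sorting receptors Sorcs2 (0.83), Sorcs1 (0.31) and Sort1 (0.19) rose. Ntf5 was too low to be tested.

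Downstream of TrkB, adaptors and kinases were called at about the shares of all genes. In the list of adaptors and kinases 10 of 47 tested members rose and 12 fell (median log2 fold change -0.05), where 22.1% and 21.1% of all genes did. Falls included Rasgrf2 (-1.93), Rps6ka5 (-1.32), Pik3r1 (-0.71) and Gab1 (-0.69), where Rps6ka5 (MSK1) phosphorylates CREB and histone H3, Pik3r1 is the regulatory subunit of PI3K and Gab1 a docking protein. Rps6ka5 was at 510.2 to 599 (median 561) in controls and 249 and 200.4 with BDNF (log2 fold change -1.32 ± 0.09, adjusted p = 2.36e-10, limma), with no overlap. Rises stayed below 2-fold and were led by Shc3 (0.66), Hras (0.51) and Rps6ka3 (0.50).

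Genes that dampen receptor kinase signalling held some of the largest rises. In this list 13 of 33 tested members rose and 9 fell (median log2 fold change 0.10), where 22.1% and 21.1% of all genes did. The falls numbered 5 without BDNF 6 h A, 4 without BDNF 6 h B and 4 with controls of 6 h only. The largest rises were those of ERK phosphatases and of a Sprouty gene. Dusp5 (chr19:53529109-53542431, plus strand), which inactivates ERK in the nucleus, was at 24.1 to 45 (median 36.7) in controls and at 349 and 346 with BDNF (log2 fold change 3.23 ± 0.18, adjusted p = 1.03e-11, limma). Dusp6 (chr10:99263231-99267489, plus strand), which does so in the cytoplasm, was at 201 to 288 (median 211) in controls and 1909 and 1899 with BDNF (log2 fold change 3.10 ± 0.11, adjusted p = 1.80e-14, limma). Dusp4 was at 510.2 to 650.0 (median 584) and 3959 and 3496 (log2 fold change 2.68 ± 0.16, adjusted p = 1.07e-08, limma). Spry4 went from a control range of 118 to 153 (median 139) to 1079 and 1017 with BDNF (log2 fold change 2.93 ± 0.19, adjusted p = 1.08e-08, limma), and the lowest BDNF library of each of the 4 was well above the highest control. Smaller rises were found for Spred3 (2.18), Spred2 (0.82), Spry2 (0.81) and Spry1 (0.67). The falls included Socs2 (-1.01), Cblb (-0.76), Dusp16 (-0.32), Socs3 (-0.30) and Dusp1 (-0.24), where Socs2 and Socs3 inhibit cytokine receptors and Cblb is a ubiquitin ligase.

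The promoter of Dusp5 is shown because a pair of adjacent CArG boxes, the motif bound by serum response factor, lies close to its start. Srf itself rose by 0.38, and its part in the rise of Dusp5 was not tested. The sequence is the RefSeq promoter of GRCm38 (chr19:53528895-53529194, plus strand, 250 bases before to 50 after the start), the capitals mark the 2 boxes and the first base of each lies at -82 and -72 from the start.
Dusp5: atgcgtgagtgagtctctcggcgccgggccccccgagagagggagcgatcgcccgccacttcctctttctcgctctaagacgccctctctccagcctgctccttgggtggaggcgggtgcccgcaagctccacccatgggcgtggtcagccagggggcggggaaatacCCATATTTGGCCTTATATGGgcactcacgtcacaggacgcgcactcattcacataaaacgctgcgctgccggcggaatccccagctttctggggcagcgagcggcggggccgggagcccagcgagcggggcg
A CArG box was found in 2.51% of 199 promoters of genes with a rise of at least 2-fold and in 1.66% of 10962 promoters of all tested genes, shares that are close to each other.

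Proteins of dense core vesicles included large rises. Of the granins and processing enzymes, 6 of 15 tested members rose and 2 fell (median log2 fold change 0.14), where 22.1% and 21.1% of all genes did. Under TMM scaling 5 rose, and the median was 0.097 without BDNF 6 h B. Scg2 (secretogranin II; chr1:79434669-79440120, minus strand), a precursor of secretoneurin, was at 762 to 1062 (median 887) in controls and 6447 and 6801 with BDNF (log2 fold change 2.89 ± 0.16, adjusted p = 1.01e-08, limma). Ptprn, a membrane protein of the same vesicles, went from a control range of 534 to 831 (median 636) to 2297 and 2225 with BDNF (log2 fold change 1.79 ± 0.24, adjusted p = 8.58e-05, limma). Both genes had separate groups. The prohormone convertases differed, with a rise of Pcsk1 (0.52) and a fall of Pcsk2 from a control range of 482 to 625 (median 563) to 341 and 315 (log2 fold change -0.77 ± 0.08, adjusted p = 1.91e-07, limma).

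Of the neuropeptide precursors, 13 of 20 tested members rose and 2 fell (median log2 fold change 0.64), where 22.1% and 21.1% of all genes did. Gal (chr19:3409915-3414544, minus strand), the precursor of galanin, had the largest fitted rise of the list. Its controls read 0 to 1.96 (median 1.07) normalised counts, which were 7 reads in all 6 libraries together, and its BDNF libraries read 114 and 113 (126 and 123 reads). The fitted log2 fold change of 5.92 ± 0.41 (adjusted p = 2.46e-10, limma) depends on the pseudocount and was 4.31 with a pseudocount of 5. Crh, corticotropin-releasing hormone, was at 0 to 3.92 (median 2.3) in controls and 48.6 and 40.3 with BDNF (log2 fold change 4.02 ± 0.79, adjusted p = 0.00122, limma; 2.81 with a pseudocount of 5). Controls of both genes were thus near the detection limit. Cartpt, the precursor of CART peptides, was at 1.2 to 10.5 (median 7.03) and 23.4 and 22 (log2 fold change 1.88 ± 0.45, adjusted p = 0.00274, limma). Smaller rises were found for Tac1 (1.44), Grp (1.28), Npy (0.96), Sst (0.84) and Vip (0.73), which also mark classes of interneurons. Adcyap1, the precursor of PACAP, fell from a control range of 45.7 to 72.1 (median 51.6) to 19.8 and 17.4 with BDNF (log2 fold change -1.50 ± 0.24, adjusted p = 4.53e-05, limma), and Nmb also fell (-0.48).

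The promoters of Scg2 (chr1:79439977-79440276, minus strand), Areg (chr5:91139349-91139648, plus strand) and Cartpt (chr13:99900634-99900933, minus strand) are printed because each holds a full cAMP response element (CRE), the site of CREB, close to the start. They are RefSeq promoters of GRCm38, printed along the gene, and the capitals mark the CRE (TGACGTCA), whose first base lies at -68, -61 and -112 from the start.
Scg2: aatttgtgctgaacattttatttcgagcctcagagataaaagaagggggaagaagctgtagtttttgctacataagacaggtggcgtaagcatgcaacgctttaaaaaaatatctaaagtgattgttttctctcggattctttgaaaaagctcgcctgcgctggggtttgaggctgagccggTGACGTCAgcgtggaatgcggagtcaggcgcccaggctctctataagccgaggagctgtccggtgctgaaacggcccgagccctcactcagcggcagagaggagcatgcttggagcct
Areg: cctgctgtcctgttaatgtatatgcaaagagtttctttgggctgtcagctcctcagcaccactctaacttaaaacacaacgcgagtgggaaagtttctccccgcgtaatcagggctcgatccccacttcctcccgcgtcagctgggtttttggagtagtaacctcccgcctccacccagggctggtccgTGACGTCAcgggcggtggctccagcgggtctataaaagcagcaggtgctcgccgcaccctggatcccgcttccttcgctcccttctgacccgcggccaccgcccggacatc
Cartpt: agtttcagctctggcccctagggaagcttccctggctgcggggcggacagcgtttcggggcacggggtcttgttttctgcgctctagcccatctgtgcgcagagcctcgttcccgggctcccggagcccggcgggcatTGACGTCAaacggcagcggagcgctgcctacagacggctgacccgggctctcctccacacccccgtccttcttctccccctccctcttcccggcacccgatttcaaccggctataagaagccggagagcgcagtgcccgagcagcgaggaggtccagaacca
A CRE was found in 4.02% of promoters of genes with a large rise, in 1.78% of those with a large fall (169 promoters) and in 3.58% of all tested promoters. Its share among the large rises was thus near that of all promoters.

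In the list of growth factors, cytokines and receptors 15 of 53 tested members rose and 19 fell (median log2 fold change -0.05), where 22.1% and 21.1% of all genes did. Areg, the EGF receptor ligand amphiregulin, was at 0.979 to 3.11 (median 1.7) in controls and at 74.8 and 73.2 with BDNF (log2 fold change 4.80 ± 0.33, adjusted p = 2.06e-10, limma; 3.55 with a pseudocount of 5). Gfra1, the co-receptor of GDNF, went from a control range of 259 to 280.0 (median 267) to 1105 and 1067 with BDNF (log2 fold change 2.01 ± 0.09, adjusted p = 2.91e-13, limma). Tnfrsf12a, the TWEAK receptor, went from a control range of 26.4 to 59.1 (median 34.2) to 215 and 214 with BDNF (log2 fold change 2.54 ± 0.20, adjusted p = 5.81e-09, limma). All 3 had separate groups. Further rises were Il6ra (1.29), Cx3cl1 (1.27), Cxcl14 (1.13), Vegfa (0.92) and Il33 (0.91), and the falls were led by Erbb4 (-0.91), Met (-0.83), Hgf (-0.72), Fgf10 (-0.69) and Igf1r (-0.68), receptors and ligands of other growth factor pathways.

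Most immediate early transcription factors were still raised. In this list 19 of 31 tested members rose and 1 fell (median log2 fold change 0.38), a share of rises of 61.3% against 22.1% of all genes. Besides the Egr genes, Junb was at 60.1 to 84.6 (median 77.4) in controls and 329.7 and 272 with BDNF (log2 fold change 2.02 ± 0.13, adjusted p = 2.06e-10, limma). Klf10 (1.79), Fos (1.73), Egr3 (1.42) and Ier2 (1.29) also rose. Members that were not called included Fosb (-0.00), Npas4 (-0.40), Nr4a1 (0.22), Fosl2 (-0.11) and Atf3 (0.20). The single fall was Nfil3 (-0.44), a repressor that also belongs to the clock.

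Effectors of synaptic plasticity had a higher median. In this list 16 of 23 tested members rose and 2 fell (median log2 fold change 1.09), where 22.1% and 21.1% of all genes did. Ptgs2 (COX-2) was at 0 to 2.4 (median 1.55) in controls and 33.3 and 40.3 with BDNF (log2 fold change 4.16 ± 0.41, adjusted p = 5.82e-08, limma; 2.74 with a pseudocount of 5), so its controls lay near 0. The neuronal pentraxins, which cluster AMPA receptors, had high levels. Nptx1 went from a control range of 454 to 633 (median 581) to 2427 and 2515 with BDNF (log2 fold change 2.15 ± 0.10, adjusted p = 5.20e-12, limma) and Nptx2 from a control range of 176 to 223 (median 198) to 798 and 890.2 (log2 fold change 2.09 ± 0.13, adjusted p = 1.39e-10, limma), both without overlap, and their receptor Nptxr rose by 1.30. Rises were also found for Gpr3 (1.97), Rgs4 (1.70), Sorcs3 (1.46), Plk3 (1.24) and Homer1 (1.24). Syt4 (-0.45) and Gadd45g (-0.38) fell.

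Among non-coding genes 1700016P03Rik (chr11:75172560-75177633, plus strand), the host transcript of 2 microRNA hairpins, rose most. It was at 2.29 to 7.21 (median 4.71) in controls and 82.9 and 62.2 with BDNF (log2 fold change 3.76 ± 0.27, adjusted p = 8.66e-10, limma). With a pseudocount of 5 its log2 fold change was 3.02. The mature miRNAs were not measured, and they are shown because their 3p arms share a seed (bases 2 to 8, in capitals; RefSeq, GRCm38).
mmu-miR-132-3p: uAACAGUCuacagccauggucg
mmu-miR-212-3p: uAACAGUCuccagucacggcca
Both hairpins lie inside the host gene on the plus strand, with mmu-miR-212-3p at chr11:75173443-75173464 and mmu-miR-132-3p at chr11:75173723-75173744. Mirt1 was at 28.5 to 55.2 (median 40.8) in controls and 233 and 220.5 with BDNF (log2 fold change 2.44 ± 0.23, adjusted p = 3.76e-08, limma), and B230216N24Rik at 52.9 to 85.2 (median 66.8) and 201 and 186 (log2 fold change 1.53 ± 0.15, adjusted p = 5.56e-08, limma). The strand used for counting is not stated, so reads of a non-coding gene and of a gene on the other strand cannot be told apart.

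Receptors for glutamate changed subunit by subunit. Of the ionotropic subunits 8 of 18 tested members rose and 3 fell (median log2 fold change 0.15), where 22.1% and 21.1% of all genes did. Grin2a, the NMDA receptor subunit that replaces Grin2b during maturation, was at 31.8 to 52.6 (median 38.3) in controls and 101 and 119.9 with BDNF (log2 fold change 1.44 ± 0.21, adjusted p = 1.25e-05, limma), whereas Grin2b was not called (-0.10). Kainate subunits went both ways: Grik4 rose from a control range of 173 to 201 (median 183) to 342 and 348 with BDNF (log2 fold change 0.90 ± 0.10, adjusted p = 3.24e-07, limma) and Grik2 fell from a control range of 1198 to 1404 (median 1297) to 719.7 and 704 with BDNF (log2 fold change -0.86 ± 0.06, adjusted p = 4.59e-10, limma). The groups were separate for these 3 genes. Gria1 (0.22), Gria3 (0.26) and Grin1 (0.78) rose, as did Grin2c (1.05) from a low level. Of 7 metabotropic receptors 2 rose and 4 fell (median log2 fold change -0.38). Grm3 (-1.11), Grm2 (-0.48) and Grm5 (-0.38) fell, while Grm8 (0.40) and Grm4 (0.36) rose.

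On the inhibitory side 7 of 20 tested members rose and 7 fell (median log2 fold change 0.03), where 22.1% and 21.1% of all genes did. Gabra5, the receptor subunit found mostly outside synapses, went from a control range of 582 to 709 (median 657) to 1624 and 1679 with BDNF (log2 fold change 1.34 ± 0.07, adjusted p = 2.70e-12, limma). Gabbr2, a subunit of the GABA-B receptor, rose (0.75), as did the enzymes Gad2 (0.64) and Gad1 (0.42) and the vesicular transporter Slc32a1 (0.51). Gabrd fell from a control range of 25.2 to 45 (median 29.4) to 10.8 and 14.6 with BDNF (log2 fold change -1.28 ± 0.25, adjusted p = 3.94e-04, limma), and Gabrb1 (-0.73) and Gabrb2 (-0.52) fell too.

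Ion channels showed no single direction. Of the potassium channels 20 of 62 tested members rose and 18 fell (median log2 fold change -0.09), where 22.1% and 21.1% of all genes did. Without BDNF 6 h B 10 fell. Kcnk9 (TASK-3), a leak channel, was at 73.1 to 87.8 (median 76.8) in controls and 329.7 and 311 with BDNF (log2 fold change 2.03 ± 0.12, adjusted p = 4.23e-11, limma). Kcns1 (1.44) and Kcna1 (1.27), subunits of voltage-gated channels, rose as well, and Kcnh4 fell from a control range of 123 to 167 (median 142) to 65.8 and 54.9 with BDNF (log2 fold change -1.24 ± 0.13, adjusted p = 1.07e-07, limma). Of the calcium and sodium channels with their regulators 8 of 35 tested members rose and 12 fell (median log2 fold change -0.07), and 5 rose without BDNF 6 h B. Rrad, a small GTPase that inhibits calcium channels, was at 1.1 to 7.26 (median 4.75) in controls and 43.2 and 34.8 with BDNF (log2 fold change 2.99 ± 0.38, adjusted p = 1.92e-06, limma; 2.25 with a pseudocount of 5). Scn3b, a beta subunit of sodium channels, was at 2364 to 2799 (median 2703) in controls and 1129 and 1167 with BDNF (log2 fold change -1.20 ± 0.07, adjusted p = 1.44e-11, limma). Cacna1g, a T-type calcium channel, fell (log2 fold change -1.25 ± 0.09, adjusted p = 8.58e-10, limma).

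At the presynapse 12 of 41 tested members rose and 11 fell (median log2 fold change 0.03), where 22.1% and 21.1% of all genes did. Without BDNF 6 h A 7 rose, and without BDNF 6 h B 7 fell. Sv2c, a vesicle glycoprotein, went from a control range of 90.6 to 145 (median 132) to 563 and 541 with BDNF (log2 fold change 2.13 ± 0.13, adjusted p = 6.07e-11, limma), and Rph3a (rabphilin) from 986 to 1319.7 (median 1147) to 480.1 and 412 (log2 fold change -1.37 ± 0.13, adjusted p = 1.58e-07, limma). Syt12 (1.25) and Doc2b (0.86) rose, and Rimbp2 (-1.13), Syn3 (-1.04) and Syt2 (-0.57) fell. Among postsynaptic scaffolds and adhesion proteins 7 of 49 tested members rose and 18 fell (median log2 fold change -0.09). The cerebellins, secreted organisers of synapses, rose. Cbln1 was at 542 to 644 (median 618) in controls and 1959 and 1955 with BDNF (log2 fold change 1.69 ± 0.08, adjusted p = 5.56e-13, limma), and Cbln4 at 109 to 159 (median 135) and 287 and 304 (log2 fold change 1.12 ± 0.13, adjusted p = 3.97e-07, limma). None of the Cbln1 or Cbln4 values overlapped. The falls included the adhesion genes Lrrtm4 (-0.80), Cadm2 (-0.71), Cntn1 (-0.68) and Cntnap2 (-0.40). Shank3 (0.68) and Dlg4 (0.50) rose and Shank2 (-0.54) and Dlg2 (-0.38) fell.

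Axon guidance genes fell more often than they rose. In this list 11 of 64 tested members rose and 31 fell (median log2 fold change -0.18), against 22.1% and 21.1% of all genes. The rises numbered 7 without BDNF 6 h A and 6 without BDNF 6 h B. Sema3e was the exception in size. Unc5b, a netrin receptor, rose from a control range of 125 to 149.7 (median 134) to 440.5 and 421 with BDNF (log2 fold change 1.66 ± 0.12, adjusted p = 5.09e-10, limma), and Sema3a (1.03), Slit3 (0.70) and Ntng1 (0.65) rose too. Ephb1 fell from a control range of 960.1 to 1083 (median 1062) to 485 and 503 with BDNF (log2 fold change -1.08 ± 0.07, adjusted p = 8.16e-11, limma) and Sema3d from a control range of 31.9 to 50.3 (median 41.7) to 18 and 13.7 (log2 fold change -1.33 ± 0.22, adjusted p = 7.72e-05, limma), each without overlap. Other falls were Draxin (-0.97), Plxnc1 (-0.93), Sema3f (-0.89), Unc5c (-0.89) and Epha6 (-0.83).

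In the list of Wnt signalling 4 of 48 tested members rose and 20 fell (median log2 fold change -0.29), where 22.1% and 21.1% of all genes did. The number of falls depended on single libraries, while the median was -0.27 without BDNF 6 h A and -0.37 without BDNF 6 h B. Beside Wnt4 the falls were the ligands Wnt9a (-0.82), Wnt5b (-0.78) and Wnt7b (-0.63), the receptor Fzd5 (-0.96), and the target genes Lgr5 (-0.59) and Axin2 (-0.41). The secreted inhibitor Wif1 rose from a control range of 5.48 to 11.7 (median 7.82) to 60.4 and 67.7 with BDNF (log2 fold change 2.89 ± 0.31, adjusted p = 1.86e-07, limma), with both libraries above all controls. Among TGF-beta, activin and BMP genes 10 of 48 tested members rose and 15 fell (median log2 fold change -0.21), with 5 rises without BDNF 6 h B. Acvr1c (1.31), Fstl4 (1.14) and the BMP antagonist Grem1 (0.82) rose, and the activin antagonist Fst fell from a control range of 236 to 265 (median 251) to 126 and 124 with BDNF (log2 fold change -0.99 ± 0.14, adjusted p = 1.07e-05, limma). Id3 (-0.75) and Id4 (-0.45), BMP targets, fell and Id2 (0.20) rose.

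The extracellular lists stayed near the shares of all genes. Among plasminogen and matrix protease genes 6 of 34 tested members rose and 6 fell (median log2 fold change -0.06). Serpinb2, an inhibitor of plasminogen activators, was at 7.83 to 12.4 (median 11.2) in controls and 94.6 and 82.3 with BDNF (log2 fold change 2.98 ± 0.23, adjusted p = 1.21e-09, limma). Adamts3 fell (-1.06), as did Adamts2 (-0.83). Of the matrix genes 7 of 38 tested members rose and 6 fell (median log2 fold change -0.07), with 10 falls without control 1 h A. Perineuronal net components split, since the proteoglycan Acan rose from a control range of 7.26 to 20.4 (median 12.9) to 27.9 and 33.9 with BDNF (log2 fold change 1.18 ± 0.29, adjusted p = 0.00315, limma), while the link protein Hapln1 fell from a control range of 162 to 215 (median 191) to 89.2 and 97 with BDNF (log2 fold change -1.02 ± 0.15, adjusted p = 1.01e-05, limma) and Vcan fell (-0.77). Tnc rose (0.69). Of the integrins 2 of 14 tested members rose and 2 fell (median log2 fold change -0.11), with values of 0.67 for Itga6, 0.48 for Itga8, -0.56 for Itga3 and -0.43 for Itgb8.

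Several lists of biosynthesis held many rises and few or no falls. Of the ribosome biogenesis factors 59 of 63 rose and 0 fell (median log2 fold change 0.47), where 22.1% of all genes rose. Bysl, needed for the small subunit, was at 304 to 341 (median 316) in controls and 665 and 711 with BDNF (log2 fold change 1.11 ± 0.08, adjusted p = 3.87e-10, limma), and Ltv1 (1.03), Grwd1 (1.02), Rrp12 (0.97), Nop2 (0.76) and Fbl (0.59) rose with separate groups for Bysl, Ltv1, Grwd1 and Rrp12. Of the aminoacyl-tRNA synthetases 18 of 20 rose and 0 fell (median 0.39), with Tars at 495 to 544 (median 522) in controls and 909.8 and 918 with BDNF (log2 fold change 0.81 ± 0.08, adjusted p = 2.88e-08, limma). Aars (0.70), Hars (0.66) and Cars (0.60) followed. Among initiation and elongation factors 26 of 49 tested members rose and 2 fell (median log2 fold change 0.29), led by Eif2b3 (0.71), Eef1e1 (0.69), Eif4a1 (0.62) and Eif3d (0.61). The falls were Eef2k (-0.60), the kinase that inhibits elongation, and Eif4b (-0.16).

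Of the cytosolic ribosomal proteins 37 of 79 tested members rose and 0 fell (median log2 fold change 0.19). This count depended on single libraries, while the median was 0.20 without BDNF 6 h A and 0.18 without BDNF 6 h B. The largest value was that of Rpl12, from 388 to 448 (median 420.4) to 687 and 669 (log2 fold change 0.69 ± 0.08, adjusted p = 5.22e-07, limma). Ribosomal protein genes have many processed pseudogenes, so reads can be shared and single members are uncertain. Rpl27 (0.51) and Rpl35 (0.45) rose, and the Rps21 call (0.47 ± 0.20, adjusted p = 0.0749, limma) was weak. Of the proteasome genes 32 of 43 tested members rose and 0 fell (median log2 fold change 0.32), with Psmc2 at 560.0 to 675 (median 618) in controls and 947 and 1037 with BDNF (log2 fold change 0.68 ± 0.08, adjusted p = 4.59e-07, limma), and Psmb5 (0.59), Psmc5 (0.59) and Psmg4 (0.59) behind it. Among chaperones 25 of 39 tested members rose and 1 fell (median log2 fold change 0.27). Those of the endoplasmic reticulum led, with Dnajb11 at 841 to 971 (median 912) and 1737 and 1728 (log2 fold change 0.93 ± 0.07, adjusted p = 6.70e-10, limma), Creld2 (0.72), Sdf2l1 (0.61), Selenos (0.59) and Hspa5 (0.48).

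Cholesterol synthesis rose as a whole list. Of its genes 24 of 25 rose and 0 fell (median log2 fold change 0.64), and Tm7sf2 was not called (-0.08). Mvd went from a control range of 336 to 518 (median 402) to 863 and 763 with BDNF (log2 fold change 0.99 ± 0.14, adjusted p = 2.42e-05, limma), Msmo1 from a control range of 1944 to 2226 (median 2071) to 3879.8 and 4093 (log2 fold change 0.94 ± 0.09, adjusted p = 5.26e-08, limma) and Cyp51 from a control range of 3399 to 3796 (median 3664) to 6465 and 6572 (log2 fold change 0.84 ± 0.07, adjusted p = 9.55e-09, limma). The groups were separate for these 3 enzymes. Insig1 (0.62), which restrains cholesterol synthesis, rose too. A sterol response element (SRE, TCACNCCAC) was found in 1 of 18 promoters of this list (5.56%) and in 1.40% of 10962 promoters of all tested genes. With 1 match the shares cannot be compared. None of the 25 tested genes changed by 2-fold.

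**Figure D2:**
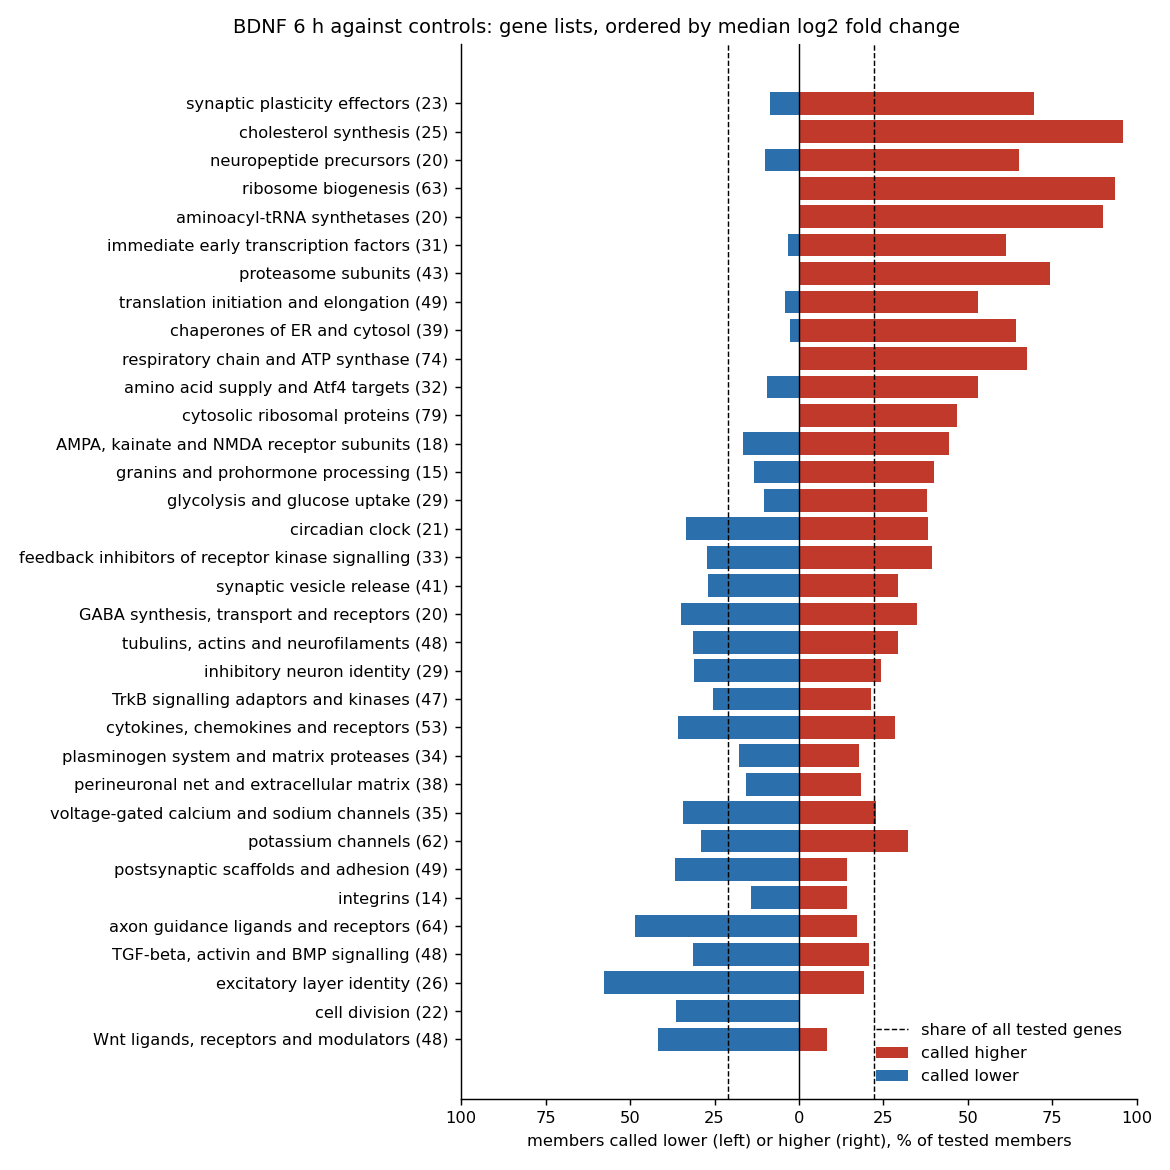
Share of tested members of each gene list that were down-regulated (blue, left) or up-regulated (red, right) at BDNF 6 h, for lists with at least 14 tested members (number in parentheses), ordered by median log2 fold change. Dashed lines are the shares of all tested genes, 21.1% and 22.1%, and the bars of cholesterol synthesis, ribosome biogenesis and the tRNA synthetases reach furthest to the right.

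Genes of energy metabolism rose in part. Of the respiratory chain and ATP synthase genes 50 of 74 tested members rose and 0 fell (median log2 fold change 0.24). The rises numbered 33 without BDNF 6 h A and 21 without BDNF 6 h B. Atp5g1 was at 339 to 400.3 (median 369.9) in controls and 570.2 and 617 with BDNF (log2 fold change 0.68 ± 0.10, adjusted p = 8.60e-06, limma), and Uqcrq (0.54) and Ndufb6 (0.53) rose, while Atp5k had an adjusted p of 0.0536 (limma). In glycolysis and glucose uptake 11 of 29 tested members rose and 3 fell (median log2 fold change 0.14). Aldoa went from a control range of 1744 to 2089 (median 1909) to 3496 and 3353 with BDNF (log2 fold change 0.85 ± 0.06, adjusted p = 9.97e-10, limma), and Eno2 (0.70), Ldha (0.62) and the neuronal glucose transporter Slc2a3 (0.49) rose. Pdk4, which holds back pyruvate oxidation, was at 29.9 to 58.9 (median 41.6) and 12.6 and 29.3 and fell (log2 fold change -1.14 ± 0.33, adjusted p = 0.0105, limma). Among alpha-arrestins and their glucose-sensing regulators 1 of 7 tested members rose and 5 fell (median log2 fold change -0.31), with 3 falls without BDNF 6 h B. Txnip went from a control range of 519 to 663 (median 623) to 185 and 181 with BDNF (log2 fold change -1.74 ± 0.16, adjusted p = 7.93e-08, limma), Arrdc4 from a control range of 779 to 907 (median 846) to 363 and 374 (log2 fold change -1.19 ± 0.09, adjusted p = 5.61e-10, limma), and Arrdc1 (-0.42), Arrdc3 (-0.31) and Mlxip (-0.22) fell while Mlx rose (0.35). For Txnip and Arrdc4 both BDNF libraries lay below every control.

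In the list of amino acid supply and Atf4 targets 17 of 32 tested members rose and 3 fell (median log2 fold change 0.22). Asns, which makes asparagine, was at 551 to 685 (median 620.1) in controls and 1212 and 1124 with BDNF (log2 fold change 0.90 ± 0.08, adjusted p = 1.49e-08, limma). The folate enzyme Mthfd2 (0.89), the arginine transporter Slc7a1 (0.88), Stc2 (0.83) and Atf4 itself (0.52) rose as well, and Cth (-0.57), Slc38a2 (-0.38) and Vldlr (-0.29) fell.

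**Figure D3:**
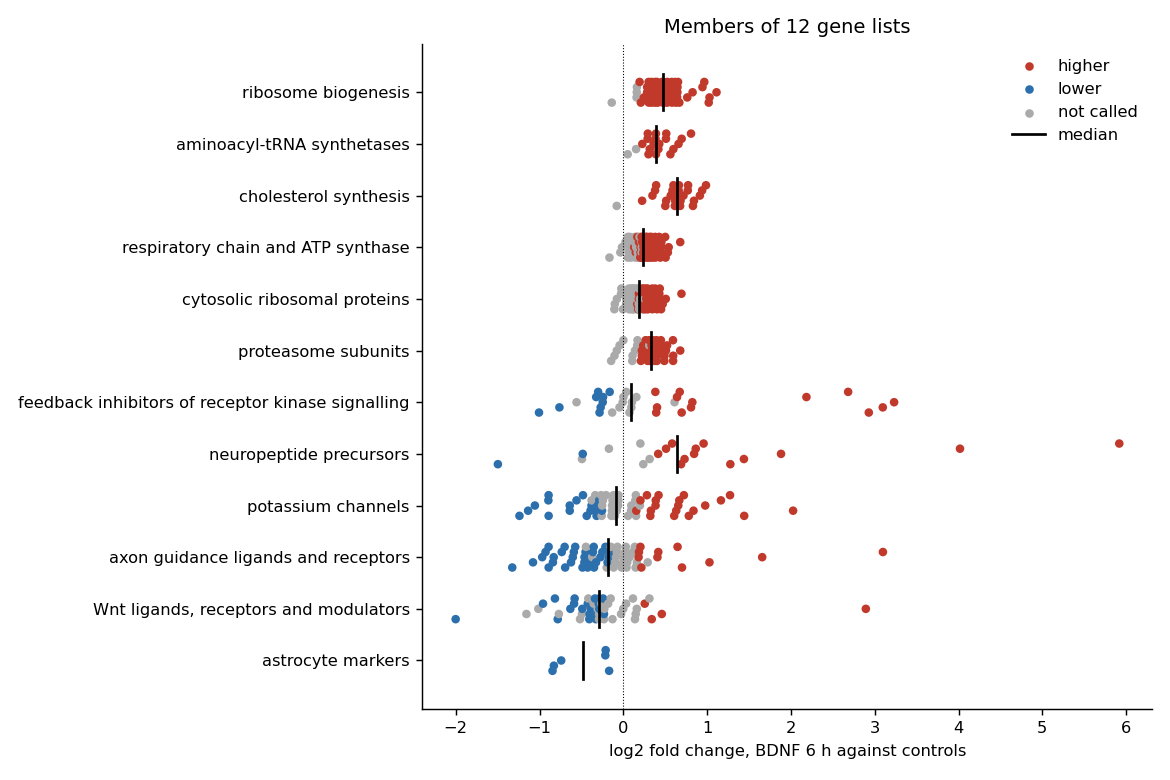
Log2 fold change at BDNF 6 h against controls (x axis) of each tested member of 12 gene lists, with 1 point per gene, coloured red when up-regulated, blue when down-regulated and grey when not called. Black bars are list medians, which lie at 0.47 for ribosome biogenesis, 0.64 for cholesterol synthesis and -0.29 for the Wnt list.

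The cytoskeleton list was balanced, as 14 of 48 tested members rose and 15 fell (median log2 fold change -0.00). Nefl and Nefm, subunits of neurofilaments, had the largest rises. Nefl (chr14:68083863-68089095, plus strand) was at 336 to 428 (median 399) in controls and 2537 and 2620.3 with BDNF (log2 fold change 2.72 ± 0.09, adjusted p = 1.59e-15, limma), and Nefm went from a control range of 408 to 479.7 (median 451) to 2643 and 2727 with BDNF (log2 fold change 2.59 ± 0.14, adjusted p = 7.05e-10, limma). Their control libraries varied little and lay far below the BDNF libraries. Nefh rose by 0.75, Tuba4a by 1.26 and Vcl by 1.07. The falls included Dpysl2 (-0.68), Dcx (-0.57), Marcks (-0.54), Map1b (-0.47) and Ina (-0.36). Among clock genes 8 of 21 tested members rose and 7 fell (median log2 fold change 0.12). Bhlhe40, a repressor of the clock, went from a control range of 177 to 210.1 (median 199.9) to 565 and 501 with BDNF (log2 fold change 1.44 ± 0.10, adjusted p = 1.71e-10, limma), Npas2 (1.22), Cry1 (0.70) and Per2 (0.68) rose, and Dbp (-0.73) and Hlf (-0.64) fell.

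Markers of cell identity were described for the cultures as a whole. Of the transcription factors of excitatory layers 5 of 26 tested members rose and 15 fell (median log2 fold change -0.23), with 3 rises without BDNF 6 h B. Mef2c was at 4295 to 4712 (median 4507) in controls and 1914 and 1753 with BDNF (log2 fold change -1.30 ± 0.07, adjusted p = 6.10e-12, limma), and Cux2, a factor of upper layers, went from a control range of 1298 to 1486 (median 1398) to 671 and 638 with BDNF (log2 fold change -1.09 ± 0.10, adjusted p = 4.10e-08, limma). Pou3f1 rose from a control range of 365 to 455 (median 395) to 924 and 959 with BDNF (log2 fold change 1.24 ± 0.09, adjusted p = 3.41e-10, limma). No library of these 3 genes overlapped between the groups, and Sox5 (-0.69) and Fezf2 (-0.44) fell. Of the inhibitory neuron genes 7 of 29 tested members rose and 9 fell (median log2 fold change -0.01), with rises in Npy (0.96), Sst (0.84) and Vip (0.73) and falls in Erbb4 (-0.91), Calb2 (-0.66) and Prox1 (-0.57). Among the pan-neuronal markers 1 of 6 tested members rose and 3 fell (median log2 fold change -0.09), with falls of Rbfox3 (-0.36), Tubb3 (-0.35) and Stmn2 (-0.19) and a value of 0.20 for Snap25. Excitatory markers had 3 rises and 3 falls of 7 (median 0.11), with log2 fold changes from -0.67 to 0.51. The rises included Slc17a6 (0.51) and Slc17a7 (0.41), the vesicular glutamate transporters.

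Several markers of glia and of dividing cells fell. All 6 tested astrocyte markers fell (median log2 fold change -0.48), while S100b was too low to be tested. The falls numbered 2 without BDNF 6 h A, 3 without BDNF 6 h B and 3 with controls of 6 h only. Aqp4 was at 396 to 714 (median 588) in controls and 334 and 302 with BDNF (log2 fold change -0.85 ± 0.19, adjusted p = 0.00305, limma), and Gfap at 182 to 379.7 (median 252) and 153 and 148 (log2 fold change -0.74 ± 0.20, adjusted p = 0.00799, limma). Both groups of values were separate but the controls spread widely. In the oligodendrocyte lineage 1 of 7 tested members rose and 3 fell (median log2 fold change -0.06): Sox10 (-0.88) and Pdgfra (-0.57) fell, whereas Mbp rose from a control range of 138 to 171 (median 149.8) to 376 and 353 with BDNF (log2 fold change 1.24 ± 0.11, adjusted p = 2.10e-08, limma). The Mbp locus also holds Golli transcripts of neurons, which gene counts do not separate. Of the cell division genes 0 of 22 tested members rose and 8 fell (median log2 fold change -0.26), with Mki67 at 1879 to 3508 (median 2768) and 1666 and 1855 (log2 fold change -0.61 ± 0.18, adjusted p = 0.0206, limma) and Top2a (-0.57) and Bub1 (-0.49) lower. Their summed level was 11917 to 17088 (median 14769) in controls and 11372 and 12064 with BDNF, so the sums overlapped, and the falls numbered 2 without BDNF 6 h A and 5 with controls of 6 h only. In the microglial list 0 of 5 rose and Aif1 fell (-0.83; list median -0.33). No endothelial marker of 3 was called (median -0.42), Dcn (-0.39) and Pdgfrb (-0.36) fell of 6 fibroblast and pericyte markers (median -0.04), and Pax6 (-0.59) fell of 7 radial glia markers (median -0.08). The part of a changed cell makeup in the neuronal results was not tested.

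The place of 6 h in the time course was tested by direct contrasts of BDNF libraries. Against BDNF 1 h, 15.8% of all genes were higher and 17.7% lower at 6 h. Of the 273 genes with a rise of at least 2-fold, 159 were higher at 6 h than at 1 h, 45 were lower and 69 were not called. These genes were picked on the same 6 h libraries, so the split only describes them. The count of all genes that differed between the times was 5443, and it was 3586 without BDNF 1 h A and 3515 without BDNF 6 h B. The 45 included the immediate early genes, with log2 differences of -3.37 for Egr4, -3.14 for Egr2, -2.76 for Arc, -2.64 for Junb and -1.71 for Egr1. Rrad (-3.40), Kcna1 (-2.11), Acan (-2.08) and Nptx1 (-1.40) were likewise lower at 6 h than at 1 h. Genes higher at 6 h than at 1 h included Crh (3.50), Sema3e (3.09), Gal (3.03), Wif1 (2.84), Mirt1 (2.43), Kcnk9 (2.14), Gfra1 (1.94), Cbln1 (1.73) and Gabra5 (1.21). Sema3e read 98.8 and 80.9 at 1 h, within the range of its controls. Levels of Vgf (-0.53), Dusp6 (0.18), Dusp4 (-0.26) and C1ql2 (-0.06) did not pass the test of this difference.

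Among the falls the pattern was similar. Of the 239 genes with a fall of at least 2-fold, 141 were lower at 6 h than at 1 h, 3 were higher and 95 were not called. Ntf3 (-1.84), Wnt4 (-1.71), Rasgrf2 (-1.60), Ccbe1 (-1.48) and Nipal3 (-1.47) were lower at 6 h than at 1 h. For Txnip (-0.05) and Dclk3 (-0.24) no difference between the times was called. In the biosynthesis lists the times also differed between genes: Cyp51 (-0.61) was lower at 6 h than at 1 h, while Bysl (0.36), Asns (0.63) and Tars (0.62) were higher.

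Between 6 and 10 h little changed. By the same test 12 genes were higher (0.074%) and 23 lower (0.142%) at 10 h than at 6 h. Of the large rises 12 were lower at 10 h and 0 higher, and of the large falls 3 were higher and 0 lower. C1ql2 (-1.48), Nptx1 (-1.05), Sema3e (-0.75) and Sv2c (-0.77) were lower at 10 h, as was Pcsk2 (-0.67), while Mef2c (0.45) and Scn3b (0.42) were higher. This contrast rests on 2 libraries on each side, and its count of 35 genes was 0 without BDNF 10 h B, 1 without BDNF 6 h A, 5 without BDNF 6 h B and 20 without BDNF 10 h A.

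**Figure D4:**
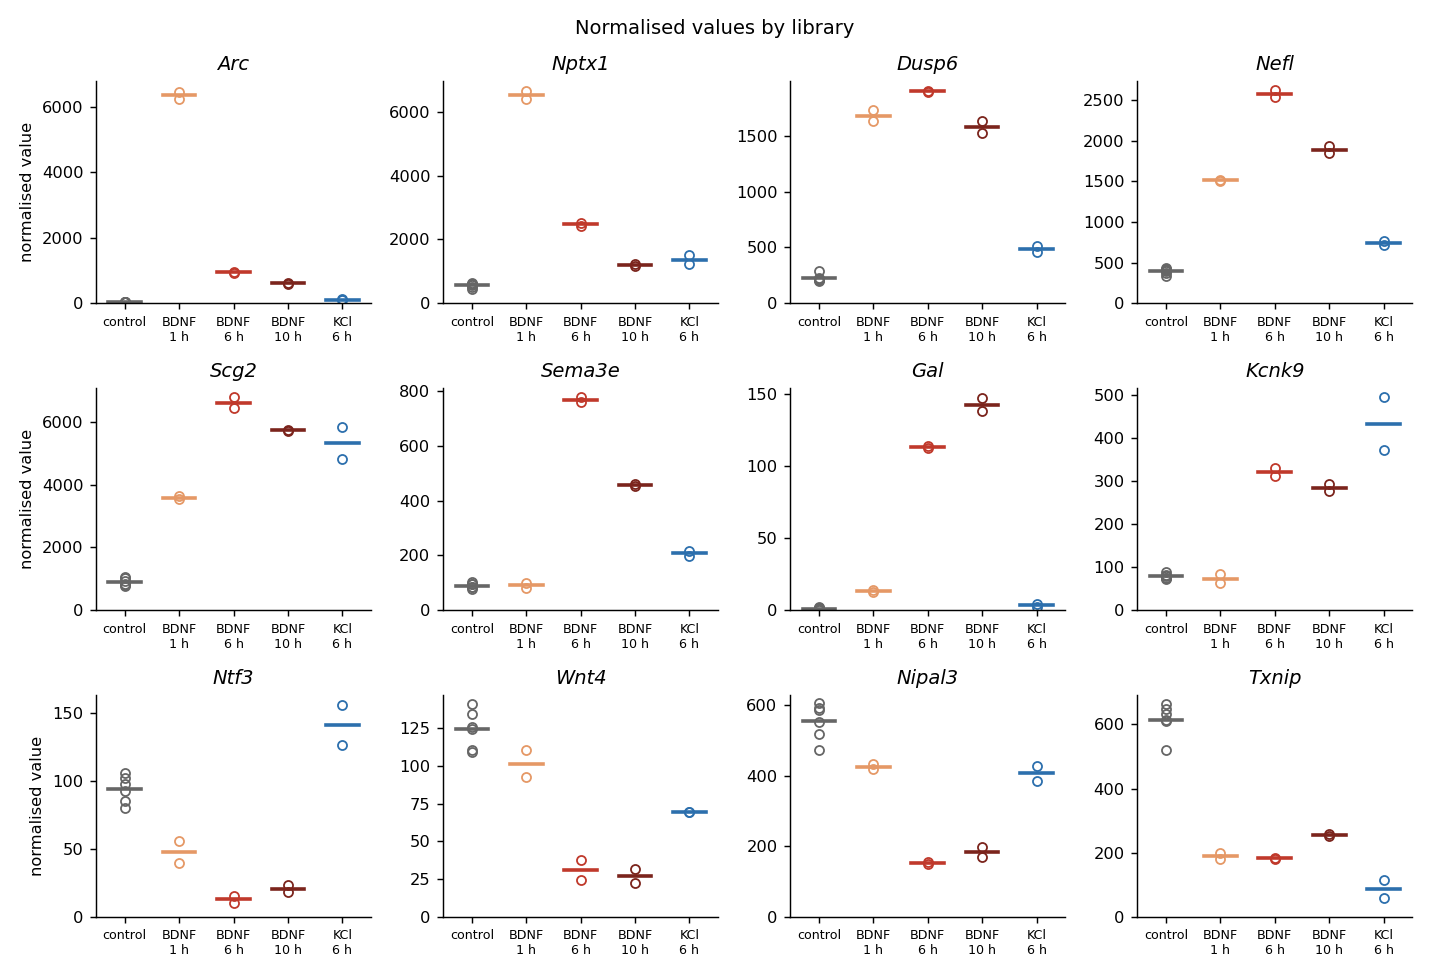
Normalised counts (y axis, starting at 0) of 12 genes in the 6 controls and in the libraries of BDNF 1, 6 and 10 h and KCl 6 h. Open circles are libraries and bars are group means. Arc and Nptx1 are highest at BDNF 1 h, Sema3e, Gal and Kcnk9 are near controls or low at 1 h and high at 6 h, and Ntf3, Wnt4 and Nipal3 are lower at 6 h than at 1 h.

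Whether the 6 h profile is that of any stimulation was asked with the direct contrast of BDNF 6 h and KCl 6 h, in which 29.6% of genes were higher with BDNF and 27.8% lower. Of the 273 large rises 188 were higher with BDNF than with KCl, 25 were lower and 60 were not called. Of the 239 large falls 140 were lower with BDNF, 16 higher and 83 not called. The genes were chosen on the BDNF libraries of this contrast, so these counts are a description. In KCl 6 h B the gene Gm42418 took 3.26% of the reads, more than any gene in the other libraries. Egr2, Egr1 and Arc stood well above KCl, with log2 differences of 3.96, 3.48 and 3.18, whereas the difference of Egr4 was not called (0.43 ± 0.60). Gal (4.82), Mirt1 (3.79), Rasl11a (2.66), Cbln1 (2.63), Synj2 (2.56), Dusp6 (1.97) and Nefm (1.95) were also higher with BDNF. Bdnf itself was lower (-3.97), as were Adcyap1 (-4.39), Acan (-3.46), Cartpt (-2.05), Kcna1 (-1.29) and Junb (-0.93). Of 31 immediate early transcription factors, 8 were higher with BDNF than with KCl and 19 lower. More members were also lower than higher with BDNF for cholesterol synthesis (14 and 5), the respiratory chain (28 and 11) and cytosolic ribosomal proteins (59 and 2). More were higher than lower for ribosome biogenesis (40 and 8), chaperones (22 and 7), proteasome genes (14 and 6) and tRNA synthetases (9 and 3).

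Some genes had values of opposite sign when each stimulus was set against the same 6 controls, which both comparisons share. Adcyap1 was at -1.50 with BDNF and 2.89 with KCl, Ntf3 at -2.81 and 0.59, Filip1 at -1.76 and 1.45, and Mirt1 at 2.44 and -1.35. Fndc9 (3.28 and 3.74) and Txnip (-1.74 and -2.88) had values of the same sign. Differences between BDNF and KCl were not called for Scg2 (0.31), Crh (-0.83), Nptx2 (-0.30) and Aldoa (0.04), with SE of 0.20, 0.97, 0.15 and 0.08.

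Up- and down-regulated genes differed in length. Protein-coding genes with a rise of at least 2-fold had a median length of 24.1 kb (253 genes) and those with a fall of at least 2-fold 51.0 kb (209 genes), where all 13450 tested protein-coding genes had a median of 25.6 kb. Over all DE-genes the medians were 19.5 kb for 3055 up-regulated and 42.1 kb for 3140 down-regulated genes. The quartiles of the large rises were 7.68 and 90.2 kb and those of the large falls 16.6 and 156 kb, so the ranges overlapped widely.

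Promoters were searched for 6 motifs on both strands, from 250 bases before to 50 after the start, in RefSeq promoters of GRCm38. None of the strings searched holds another. EGR sites (GCGGGGGCG or GCGTGGGCG) were found in 13.6% of promoters of large rises, 6.51% of large falls and 7.90% of all tested genes. The AP-1 site (TGANTCA) was found in 11.6%, 7.10% and 5.77%, the E-box (CACGTG) in 15.6%, 11.2% and 11.6%, and the SRE (TCACNCCAC) in 1.51%, 0% and 1.40%. Promoters were found for 199 of 271 names of large rises, 169 of 238 of large falls and 10962 of 16015 of all tested genes. A match is a string of letters and no measured site.

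Open chromatin near the genes was taken from ATAC-seq libraries of the same design, which the choice of genes did not use. At BDNF 6 h 5007 of 56383 peaks were gained (8.88%) and 984 closing (1.75%) against 6 control libraries (edgeR quasi-likelihood test, FDR = 10%). The count of 5991 changed peaks was 3413 and 3981 when one or the other ATAC BDNF 6 h library was left out. Within 50 kb of the gene start, 72 of 253 protein-coding genes with a large rise had a gained peak (28.5%, exact 95% interval 23.0% to 34.5%), compared with 21 of 209 genes with a large fall (10.1%, 6.33% to 15.0%) and 1780 of 13450 tested genes (13.2%, 12.7% to 13.8%). Intervals cover counting error only. The genes with a large rise had a median of 3 peaks in the window and all genes 4. Closing peaks were near 4.74%, 3.83% and 3.67% of the 3 sets. Within 20 kb a gained peak was near 17.8% of large rises, 3.35% of large falls and 5.59% of all genes.

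**Figure D5:**
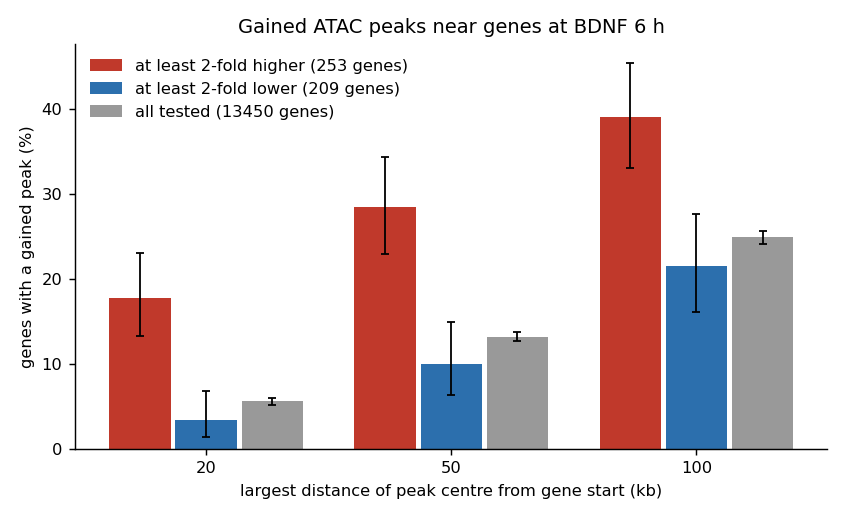
Share of protein-coding genes (y axis, in percent) with at least 1 gained ATAC peak within 20, 50 or 100 kb of their start (x axis), for genes with a rise of at least 2-fold (red), a fall of at least 2-fold (blue) and all tested genes (grey). Error bars are exact 95% intervals, and at 50 kb the shares are 28.5%, 10.1% and 13.2%.

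Of the 12 genes with the largest rise, Egr2, Rasl11a, Synj2, Fndc9, Sema3e and Dusp6 had a gained peak within 50 kb, while Vgf, Arc, Egr4, Egr1, C1ql2 and Dusp5 had none called. None of the 12 genes with the largest fall had a gained or a closing peak. The peak of Sema3e (chr5.0:13987200.0-13987474.0), 37.9 kb before its start, was at 5.84 ± 3.83 (SD, n = 6) scaled reads in controls and at 29.9 and 34.1 with BDNF (log2 fold change 2.46 ± 0.46, adjusted p = 1.17e-05, edgeR). The peak of Dusp6 (chr10.0:99250820.0-99251084.0), 12.3 kb before its start, was at 6.17 ± 5.15 (SD, n = 6) scaled reads in controls and at 32.4 and 34.3 with BDNF (log2 fold change 2.35 ± 0.41, adjusted p = 3.29e-06, edgeR). The peak of Synj2 (chr17.0:5975557.0-5975831.0), 34.4 kb after its start, was at 5.84 ± 3.22 (SD, n = 6) scaled reads in controls and at 33.8 and 41.3 with BDNF (log2 fold change 2.68 ± 0.40, adjusted p = 5.37e-08, edgeR). For each gene the peak with the largest log2 fold change within 50 kb is given, among 5 peaks for Sema3e, 5 for Dusp6 and 4 for Synj2. Only called peaks are given, so their distance from the controls follows from that choice. Dusp6 had 2 gained peaks within 50 kb. The gained peak of Fndc9 (chr11.0:46235226.0-46235787.0) covers its start and was at 41.1 ± 11 (SD, n = 6) scaled reads in controls and at 83.9 and 92.9 with BDNF (log2 fold change 1.10 ± 0.21, adjusted p = 2.14e-05, edgeR).

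The peak sequences of Sema3e and Dusp6 (GRCm38, plus strand) are shown because they hold AP-1 sites, marked in capitals, and lie near genes with large rises.
Sema3e peak: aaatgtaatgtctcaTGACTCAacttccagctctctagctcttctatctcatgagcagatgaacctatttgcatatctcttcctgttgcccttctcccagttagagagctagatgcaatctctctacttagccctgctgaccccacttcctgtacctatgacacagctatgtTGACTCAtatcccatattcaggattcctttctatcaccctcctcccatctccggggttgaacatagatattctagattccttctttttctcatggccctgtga
Dusp6 peak: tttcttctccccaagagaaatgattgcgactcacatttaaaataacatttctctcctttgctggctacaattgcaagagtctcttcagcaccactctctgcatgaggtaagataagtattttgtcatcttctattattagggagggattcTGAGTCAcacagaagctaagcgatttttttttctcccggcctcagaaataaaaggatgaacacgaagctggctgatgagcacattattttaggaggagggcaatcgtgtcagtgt
An AP-1 site was found in 56 of the 82 gained peaks near large rises (68.3%) and in 73 of the 825 other peaks near them (8.85%). Near all tested genes the shares were 71.15% of 1435 gained peaks and 7.29% of 25408 others. The CRE was found in 0 of the 82 gained peaks and in 1.82% of the 825 others. The Synj2 peak held 0 AP-1 strings.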

How the data were processed

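The RNA and ATAC libraries hold 18 samples each, 2 for each of 9 conditions. The sample labels gave each group. Libraries for RNA-seq were made with oligo-dT selection and read single-end. Per the authors, reads were trimmed with Trimmomatic, aligned to mm10 with TopHat2, assigned to GENCODE M16 genes and divided by DESeq2 size factors, and the deposited values are this normalised signal per gene. All values (100%) were whole reads within 0.01 after division by the value of 1 read. The deposited ATAC table holds read counts in consensus peaks, made by the authors with Bowtie2, MACS2 and DiffBind; it is named as normalised, but its values are whole. The other deposited tables hold the authors' fold changes and p-values and were not used.

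Genes with a mean of at least 10 over the 18 RNA libraries (16209 of 26709) were tested with limma 3.58.1 (R 4.3.3) on log2(value + 1), with 7 levels that pool the 6 controls, an intensity trend, robust variances, two-sided tests and Benjamini-Hochberg adjustment over all genes at 0.1. Peaks with a mean of at least 10 (56383 of 58177) were tested with the quasi-likelihood test of edgeR 4.0.16 with LOESS offsets (span 0.3). Both procedures were tested on simulated data. DESeq2 1.42.0, edgeR on recovered reads, other scalings, filters, pseudocounts, controls and left-out libraries served as alternatives. Gene names are those of GENCODE M21 (26162 genes matched), promoters and miRNAs those of RefSeq for GRCm38.

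Genes named with values per library were the 12 largest rises and 12 largest falls among protein-coding genes with a mean of at least 50 and both BDNF libraries beyond all controls, up to 4 called members per list with the largest change, 3 non-coding genes, Bdnf and Ntrk2. Other names were chosen after their values were seen. The members and the 45 lists were chosen with earlier results of these data known. Depth was 8508452 to 36699187 reads per RNA library. Intervals of shares are exact binomial and cover counting error only. A few genes are not reported here.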

Additional observations from a re-analysis of the deposited data

Results flagged for a closer look

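Of the 184 genes described by their values per library, 8 had 1 control far from the other 5 by Dixon's ratio at its 95% level, and chance alone gives about 1 in 20 groups. Dusp6 was highest in control 6 h B at 288.3 normalised counts, where the others reached 223.8. Filip1 was highest in control 6 h A at 55.8, where the others reached 46.3. In control 10 h A, Txnip (519.1, others from 609.9) and Bdnf (38.45, others from 59.11) were lowest and Psmg4 (159.8, others to 129.4) was highest. In control 1 h A, the deepest library, Sv2c was lowest (90.63, others from 126.2) and Aars highest (2206, others to 1995). Sox5 was highest in control 1 h B (823.8, others to 733.1). Both BDNF libraries lay outside the range of all 6 controls for each of the 8 genes.

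Of the same 184 genes, 135 differed between BDNF 6 h and BDNF 1 h (limma, adjusted p below 0.1), 61 of them higher and 74 lower at 6 h, and 47 differed by at least 2-fold. The values that follow are log2 differences of BDNF 6 h from BDNF 1 h, with 2 libraries at each time, for these 47. Genes of transcription and plasticity that were lower at 6 h were Egr4 (-3.37), Egr2 (-3.137), Egr1 (-1.712), Junb (-2.64), Arc (-2.759), 1700016P03Rik (-2.236), Nptx1 (-1.401) and Nptx2 (-1.127). Signalling genes lower at 6 h were Rrad (-3.401), Ntf3 (-1.835), Wnt4 (-1.712), Rasgrf2 (-1.595), Rps6ka5 (-1.158), Tnfrsf12a (-1.562), Gpr17 (-1.73), Grm3 (-1.302) and Gabrd (-1.044). Channel, vesicle, matrix and guidance genes lower at 6 h were Kcna1 (-2.111), Kcnh4 (-1.235), Cacna1g (-1.382), Rph3a (-1.261), Acan (-2.085), Sema3d (-1.504) and Ccbe1 (-1.478), and the transporters were Nipal3 (-1.467) and Abca8a (-1.322). Peptides and secreted proteins higher at 6 h were Crh (3.501), Gal (3.033), Cartpt (1.408), Sema3e (3.092), Wif1 (2.842), Cbln1 (1.732) and Fstl4 (1.1). Receptors and channels higher at 6 h were Kcnk9 (2.137), Kcns1 (1.679), Gfra1 (1.944), Grin2c (1.428), Grin2a (1.137), Gabra5 (1.214) and Itga8 (1.102), and the remaining genes higher at 6 h were Mirt1 (2.429), Sv2c (1.618), Npas2 (1.559), Fndc9 (1.465), Synj2 (1.195), Ptgs2 (1.16) and Syt12 (1.025). The other 88 genes differed by less than 2-fold.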

How the results depend on the processing

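No named gene turned its direction under any alternative run. The median of 7 lists turned its sign in at least 1 alternative: the circadian clock (-0.0060), microglia (0.0075), perineuronal net (0.00073) and fibroblast (0.053) lists without BDNF 6 h A, the integrins (0.038) with a minimum mean of 50, the GABA list (-0.0048) without control 10 h A, and inhibitory neuron identity with controls of 6 h only (0.046) and without BDNF 6 h B (0.090) or without any 1 of 4 of the 6 controls (0.0018 to 0.015). Over all alternatives 3397 calls of named genes were kept and 80 were lost. At an adjusted p below 0.01 (limma), 2062 genes were called higher and 1777 lower at BDNF 6 h, 2637 differed from BDNF 1 h, 7 differed at 10 h from 6 h, and 3455 peaks changed (edgeR). At least 2-fold rises numbered 521 with no filter and 169 with a minimum mean of 50, and falls 458 and 120. These runs tested 26618 and 13123 genes in place of 16209. Many large changes were in weakly expressed genes. The median of control means was 52.0 for protein-coding large rises, 69.1 for large falls and 360 for all tested. Falls of at least 2-fold numbered 147 with a pseudocount of 5, which shrinks low genes. For 10 h against 6 h, edgeR called 55 genes in place of 35, and the cause was not tested. Gained peaks were near 17.79% of large rises within 20 kb and 39.13% within 100 kb, and near 3.349% and 21.53% of large falls, as the window sets.

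With 1 library left out, genes called higher ranged from 2303 to 3716 and lower from 2141 to 3562, differences from BDNF 1 h from 3515 to 3743, those at 10 h from 6 h from 0 to 20 and changed peaks from 3413 to 3981. The lone BDNF library was then assumed to vary like the other groups. The low ends came without BDNF 6 h B, BDNF 10 h B or an ATAC BDNF 6 h library, and lower calls were 2225 without BDNF 6 h A. Calls were lost without either BDNF 6 h library for Grm8, Itgb8, Rps21, Atp5k, Aldh1l1, Pdgfrb, Ccnb1 and Snap25. They were lost without BDNF 6 h A for Itga8, Fzd5, Wnt9a, Pdk4, Vip, Gja1, Dcn, Mki67 and Rbfox3, and without BDNF 6 h B for Itga6, Acvr1c, Rpl35, Dbp, Arrdc1, Aif1 and Stmn2. DESeq2 did not call Rps21 and Atp5k. With controls of 6 h only, 13 named genes were not called.

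Whether the column letters A and B pair the samples was not settled. Deviations of same-lettered libraries correlated at 0.203 to 0.418 among BDNF 6 h, control 1 h and control 6 h. Between these groups and control 10 h they correlated at -0.315 to -0.166. A replicate block on the letters gave 3666 genes higher and 3574 lower, 274 and 246 at least 2-fold, 5624 differences from 1 h, 43 from 10 h and 9460 from KCl, and changed no call of a named gene. Low depth limits genes such as Gal and Crh, whose controls held a few reads.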

Other observations

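Of the 273 genes that rose by at least 2-fold, 76 belonged to the 45 lists and 197 to none. Of the 239 genes that fell by at least 2-fold, 27 belonged to the lists and 212 to none. The lists hold 1386 genes, where 16209 genes were tested, so most tested genes belong to none. The genes that follow took ranks 13 to 24 of the rises or falls, belonged to no list and were named after their values were seen. Cckbr was at 10.3 to 21.8 (median 16.2) in controls and 133 and 134 with BDNF (log2 fold change 2.99 ± 0.22, adjusted p = 9.34e-10, limma), and it encodes a receptor for cholecystokinin. Crhbp was at 15.4 to 25.2 (median 19.2) in controls and 158 and 168 with BDNF (log2 fold change 2.97 ± 0.22, adjusted p = 9.03e-10, limma), and its product binds corticotropin-releasing hormone, whose gene Crh rose as well. Ecel1 was at 71.3 to 123 (median 84.4) in controls and 662 and 618 with BDNF (log2 fold change 2.86 ± 0.18, adjusted p = 4.25e-10, limma), and it encodes an endopeptidase-like membrane protein of neurons. No BDNF library of these 3 genes overlapped with controls. St8sia5 was at 95.4 to 119.8 (median 102) in controls and 696 and 714 with BDNF (log2 fold change 2.75 ± 0.12, adjusted p = 1.78e-13, limma), a sialyltransferase of gangliosides. Cyp26b1 was at 109.7 to 139 (median 121) in controls and 701 and 708 with BDNF (log2 fold change 2.51 ± 0.13, adjusted p = 2.59e-12, limma), the enzyme that degrades retinoic acid, and its log2 difference from BDNF 1 h was 1.87. Both lay far above their controls.

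Falls outside the lists were of smaller size. Tmtc1 was at 415 to 477 (median 455) in controls and 145 and 165 with BDNF (log2 fold change -1.53 ± 0.10, adjusted p = 1.60e-10, limma), and its product is a transmembrane protein of the endoplasmic reticulum. Sphkap was at 1007 to 1105 (median 1041) in controls and 422 and 385 with BDNF (log2 fold change -1.37 ± 0.07, adjusted p = 1.67e-12, limma), and it encodes an anchor of protein kinase A. Klf11 was at 371 to 411 (median 386) in controls and 149 and 135 with BDNF (log2 fold change -1.45 ± 0.09, adjusted p = 1.07e-10, limma), and it encodes a zinc finger transcription factor. In each of the 3 both BDNF libraries lay below every control. The further falls of these ranks were Synm (-1.50), Pla2g4e (-1.50), Arhgap28 (-1.48), Zfp663 (-1.46), Bmf (-1.41), Adamtsl2 (-1.37) and Cdh7 (-1.36). Synm encodes an intermediate filament protein, Bmf a pro-apoptotic BH3-only protein and Cdh7 a cadherin. Among all 273 large rises 125 were also at least 2-fold higher at BDNF 1 h, and among the 239 large falls 40 were at least 2-fold lower at 1 h. Both comparisons used the controls on which the large changes were chosen. The shares of all tested genes at 1 h are not given, so these counts only describe the genes.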
